A study of Rattus norvegicus with 3 samples.

Results

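The synaptic adhesion and synapse-organizing genes measured here are 42 genes of 12 families, taken by symbol from the 26353 entries of the deposited expression table. All 42 were among the 17611 entries above 0 in at least 1 library. They are the neurexins Nrxn2 and Nrxn3, the LAR-type receptor tyrosine phosphatases (Ptprd, Ptprf and Ptprs), the neuroligins (Nlgn1 to Nlgn3), 4 Lrrtm, 5 Slitrk and 5 Lrfn genes, Il1rap with Il1rapl1 and Il1rapl2, 4 cerebellins (Cbln), 3 latrophilins (listed under their older symbols Lphn1 to Lphn3), 3 teneurins (Tenm2 to Tenm4), 3 Flrt genes and 4 Cadm genes. Tenm1, Slitrk4 and Nlgn4 were not analysed here. RNA came from commissural neurons, which send their axons across the ventral midline, and these were taken from rat spinal cord at embryonic day 13 and cultured for 2 days. The 3 libraries of polyadenylated RNA form 1 group with no treatment, mutation or control, and the labels give neither strain nor sex. Levels of different genes were therefore set against each other inside each library, and no comparison of conditions was possible. The labels do not say whether the 3 libraries derive from separate cultures or animals, so a p-value here measures no more than the spread among these samples, and that spread may be technical. Levels are in FPKM as deposited, by name fragments per kilobase of transcript and relative to all mapped fragments. Genes were set against each other on that scale, although the transcript lengths behind it are not given.

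Synapses are held together and organized by adhesion molecules that face each other across the cleft. Neurexins and LAR-type phosphatases are the best known presynaptic hubs: neurexins bind neuroligins, Lrrtm proteins and, through secreted cerebellins, the delta glutamate receptors, while LAR-type phosphatases bind Slitrk, Lrfn and Il1rap-like proteins. Latrophilins are adhesion receptors coupled to G proteins that bind teneurins and Flrt proteins, and Cadm proteins (also called SynCAMs) bind each other as homophilic and heterophilic pairs. Several of these families also act before synapses form, in axon growth, guidance and target recognition.

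The labelled cell type was checked against marker genes. The neuronal genes Tubb3 and Stmn2 averaged 960 ± 70.2 FPKM and 435 ± 41.0 FPKM (SD, n = 3). The 5 neuronal markers summed to 2157 FPKM in library 2, against 2013 and 1945 FPKM in libraries 1 and 3. Robo3 and Dcc, guidance receptors of commissural neurons, had 74.5 and 48.1 FPKM in library 2, against 118 and 68.0 FPKM in library 1 and 119 and 71.6 FPKM in library 3. The 4 commissural markers summed to 172 FPKM in library 2, against 245 and 252 FPKM in libraries 1 and 3. Cntn2 was also lower in library 2 (33.4 FPKM, against 44.2 and 46.4 FPKM). Boc was not (15.7 FPKM, against 15.0 and 15.1 FPKM). The 5 markers of radial glia and progenitors were all above 1 FPKM and summed to 1200 FPKM in library 2, against 944 and 975 FPKM in libraries 1 and 3, with Fabp7 (564 FPKM) and Vim (398 FPKM) highest. Of the other lists, markers of astrocytes (highest Aldh1l1 at 3.20 FPKM and Aqp4 at 0.050 FPKM), endothelium (Pecam1 at 0.25 and Cldn5 at 0.070 FPKM), fibroblasts (Col3a1 at 2.27 and Col1a1 at 0.63 FPKM), sensory ganglia (Calca at 1.71 and Prph at 0.26 FPKM) and motor neurons (Chat at 0.037 FPKM, with Mnx1 and Isl2 listed at 0) summed to under 5 FPKM in every library. The 5 markers of microglia and macrophages summed to 11.4 FPKM in library 2 and to 7.56 and 11.7 FPKM in libraries 1 and 3 (Aif1 at 6.76 and Csf1r at 1.82 FPKM on average). Of 3 markers of the oligodendrocyte lineage, Mog averaged 15.3 FPKM and Mbp 0.74 FPKM, while Sox10 was listed at 0 in libraries 1 and 3 and at 0.030 FPKM in library 2. These are bulk libraries, so fewer cells of a type and less RNA per cell cannot be told apart, and the part of non-neuronal cells in the values below was not tested. Library 2 stands apart from the other 2 in the commissural and progenitor sums, whereas in the microglia and macrophage sum library 1 does. For the genes of the set, calls above 1 FPKM, or against a family's reference gene (defined below), that rest on library 2 are given with and without it.

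Most of these genes were detected well above 1 FPKM. In limma's moderated test on log2(FPKM + 0.1), one-sided against 1 FPKM with Benjamini-Hochberg adjustment over all entries, 37 of the 42 genes lay above that level, against 63.7% of all 17611 entries. With every library rescaled to a common sum of 1000000 over all entries, 9 of the 42 genes passed, against 13.4% of all entries. On the deposited scale Nrxn2, Nrxn3 and the LAR-type phosphatase, neuroligin, Lrrtm, Lrfn, latrophilin, teneurin, Flrt and Cadm genes all passed, as did 4 of 5 Slitrk genes, 3 of 4 cerebellins and none of the 3 Il1rap genes. The 5 that did not pass were Slitrk6, Il1rap, Il1rapl1, Il1rapl2 and Cbln3. The weakest of those that passed was Flrt1 (limma, Benjamini-Hochberg adjusted p = 0.0197). Flrt1 no longer passed without library 1 or without library 2, which left 36 genes. The median gene of the set had 10.4 FPKM, and the median of all entries above 0 was 4.81 FPKM. By mean level, 3 genes had at least 100 FPKM, 18 had 10 to 100 FPKM, 16 had 1 to 10 FPKM and 5 had less than 1 FPKM.

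**Figure D1:**
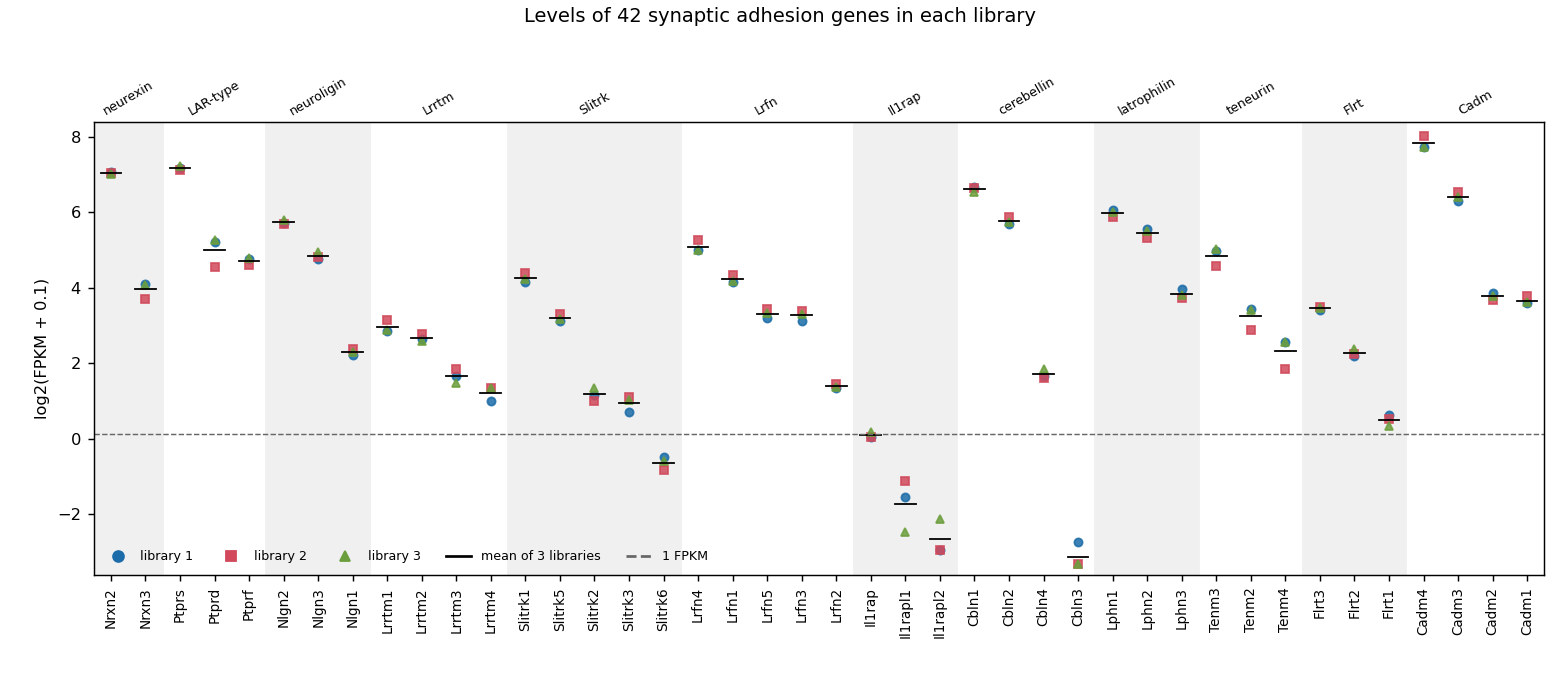
Level of each of the 42 genes in each library, as log2(FPKM + 0.1), grouped by family and ordered by mean within a family; horizontal bars are means of the 3 libraries and the dashed line is 1 FPKM. The library values of most genes lie close together relative to the distances between family members. Library 2 lies below both others for 14 of the 37 genes with a mean of at least 1 FPKM. Among these it lies furthest below the mean of libraries 1 and 3 for Ptprd, Nrxn3 and all 3 teneurins.

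Ratios between genes were taken within each library. Every entry of the table was set against a reference gene of each family, the first in number order with a mean of at least 1 FPKM, and limma tested the log2 ratio against 0. In this test 26 of 28 genes differed from their family's reference. Such calls were common among all genes too: the share of all entries that differed was 98.5% from Nrxn2, 85.1% from Ptprd, 94.7% from Nlgn1, 92.4% from Lrrtm1, 94.7% from Slitrk1, 94.9% from Lrfn1, 98.3% from Cbln1, 96.6% from Lphn1, 84.4% from Tenm2, 94.2% from Flrt1 and 94.3% from Cadm1. All ratios of such a fit share the noise of the reference gene, so the intervals given below come from a second fit, added after the results were seen, in which the variance prior was estimated from ratios of successive entries of the table. It also called 26 of 28, with 89.2% of successive pairs of entries called. All folds below are on the FPKM + 0.1 scale with a 95% interval for that pair alone. Close relatives may share reads of 50 bp, and how the authors counted such reads is not given in the sources used here, so ratios between relatives are uncertain to that extent.

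Among the neurexins, the presynaptic receptors for neuroligins, Lrrtm proteins and cerebellins, Nrxn2 (ENSRNOG00000021103) held 89.4% of the summed FPKM of Nrxn2 and Nrxn3. It had 134, 131 and 129 FPKM in libraries 1, 2 and 3, and Nrxn3 had 17.0, 13.0 and 16.8 FPKM. The values of the genes did not overlap. Nrxn2 lay 8.42-fold (7.16 to 9.90) above Nrxn3, with a limma Benjamini-Hochberg adjusted p of 3.02e-07. The table has 1 value per gene and does not separate the alpha and beta transcripts of a neurexin.

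The LAR-type phosphatases, the other presynaptic hub, were likewise led by 1 gene. Ptprs (ENSRNOG00000047247) had 145, 140 and 149 FPKM in libraries 1, 2 and 3, or 71.0% of the family's sum. It lay 4.49-fold (3.52 to 5.74) above Ptprd. Ptprd had 23.3 FPKM in library 2, against 36.8 and 38.6 FPKM in libraries 1 and 3, and Ptprf had 24.3 FPKM in library 2, against 27.1 and 27.5 FPKM. The order of this pair therefore turned in library 2, where Ptprf was higher. Over all 3 libraries Ptprd was 1.22-fold (1.00 to 1.49) of Ptprf, which missed the threshold (limma, Benjamini-Hochberg adjusted p = 0.0561), and without library 2 the pair passed, at a log2 ratio of Ptprf to Ptprd of -0.46. In the fit against the shared reference, the adjusted p over all 3 libraries was 0.427 (limma, Benjamini-Hochberg), with a log2 ratio of Ptprf to Ptprd of -0.29 (-0.96 to 0.38).

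Of the neuroligins, postsynaptic partners of neurexins, Nlgn2 was the highest. It is known as the neuroligin of inhibitory synapses, whereas Nlgn1 is known from excitatory synapses and Nlgn3 from both. Nlgn2 (ENSRNOG00000015430) had 52.3, 51.6 and 55.0 FPKM in libraries 1, 2 and 3, Nlgn3 had 27.2, 27.9 and 30.6 FPKM, and Nlgn1 had 4.53, 5.09 and 4.80 FPKM. The order Nlgn2, Nlgn3, Nlgn1 was the same in every library. Nlgn2 lay 10.8-fold (9.17 to 12.8) above Nlgn1 and 1.86-fold (1.68 to 2.05) above Nlgn3.

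The 4 Lrrtm genes code for leucine-rich repeat proteins of excitatory postsynapses, and they were low. LRRTM1 had 7.14, 8.81 and 7.31 FPKM in libraries 1, 2 and 3, and Lrrtm2 had 6.11, 6.77 and 5.94 FPKM. Lrrtm3 averaged 3.10 ± 0.405 FPKM and Lrrtm4 averaged 2.24 ± 0.306 FPKM (SD, n = 3). LRRTM1 lay 1.23-fold (1.06 to 1.43) above Lrrtm2, with a limma Benjamini-Hochberg adjusted p of 0.0174, and of 0.0545 without library 1 and 0.0851 without library 3. The whole family summed to 19.4 FPKM, less than Nlgn3 alone.

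The Slitrk and Lrfn genes code for postsynaptic partners of LAR-type phosphatases, and each family spanned more than a 10-fold range of FPKM. Slitrk1 was the highest of its family, with 17.7, 20.8 and 18.5 FPKM in libraries 1, 2 and 3, and lay 2.07-fold (1.82 to 2.36) above Slitrk5 (8.60, 9.81 and 8.95 FPKM). Slitrk2 (2.17 ± 0.265 FPKM) and Slitrk3 (1.84 ± 0.268 FPKM; SD, n = 3 each) were not separated over all 3 libraries, at a ratio of 1.17 (0.90 to 1.52). Slitrk2 had 1.91 FPKM in library 2, against 2.15 and 2.44 FPKM in libraries 1 and 3. Slitrk3 had 2.05 FPKM in library 2, against 1.54 and 1.94 FPKM. The order of this pair thus turned in library 2, and its ratio without library 2 is not given here. Slitrk6, known from the inner ear and retina, was the lowest at 0.62, 0.46 and 0.56 FPKM. Lrfn4 led the Lrfn genes, also called SALMs, with 38.0 FPKM in library 2 and 31.6 and 31.9 FPKM in libraries 1 and 3, and lay 1.81-fold (1.63 to 2.02) above Lrfn1 (17.7, 20.04 and 17.9 FPKM). Lrfn5 (9.89 ± 0.809 FPKM) and Lrfn3 (9.57 ± 0.969 FPKM; SD, n = 3 each) could not be told apart, at a ratio of 1.03 (0.91 to 1.18). Lrfn4 and Lrfn5 code for the SALMs best known to bind LAR-type phosphatases. Lrfn2 averaged 2.52 ± 0.0985 FPKM (SD, n = 3).

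Il1rap, the interleukin-1 receptor accessory protein gene that also has a neuronal isoform, sat at the level tested. It had 0.93, 0.94 and 1.04 FPKM in libraries 1, 2 and 3 (limma, Benjamini-Hochberg adjusted p = 0.928 against 1 FPKM). Its relatives Il1rapl1 (0.24, 0.36 and 0.08 FPKM) and Il1rapl2 (0.03, 0.03 and 0.13 FPKM), X-linked genes of which the first codes for a postsynaptic partner of Ptprd, were at the low end of the table, with library values that spread widely. No ratio was tested against a reference in this family, since no gene averaged at least 1 FPKM.

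Of the cerebellins, secreted proteins that bridge neurexins to delta glutamate receptors, Cbln1 and Cbln2 were among the highest genes of the whole set. Cbln1 (ENSRNOG00000000010) had 101, 99.6 and 92.9 FPKM in libraries 1, 2 and 3, and Cbln2 had 51.1, 58.3 and 53.0 FPKM. The values did not overlap, and Cbln1 lay 1.81-fold (1.63 to 2.01) above Cbln2. Cbln4, a cerebellin known to bind the netrin receptor Dcc as well as neurexins, had 3.06, 2.94 and 3.50 FPKM and lay 16.6-fold (13.5 to 20.4) below Cbln2. Cbln3, known from cerebellar granule cells, had 0.05 FPKM in library 1 and was listed at 0 in libraries 2 and 3, so no fold is given for it. Grid1, the gene of a delta receptor on the far side of this bridge, averaged 7.73 ± 0.332 FPKM (SD, n = 3).

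The latrophilins and their partners formed a graded group. Lphn1 had 66.6, 59.0 and 63.9 FPKM in libraries 1, 2 and 3, Lphn2 had 46.7, 40.0 and 45.0 FPKM, and Lphn3 had 15.6, 13.2 and 13.9 FPKM. Lphn1 lay 1.44-fold (1.32 to 1.57) above Lphn2, and Lphn2 lay 3.07-fold (2.73 to 3.46) above Lphn3. All 3 genes were lowest in library 2. Among the teneurins, large type II membrane proteins that bind latrophilins, Tenm3 had 23.5 FPKM in library 2, against 31.3 and 32.5 FPKM in libraries 1 and 3. Tenm2 had 7.25 FPKM in library 2, against 10.8 and 10.6 FPKM, and Tenm4 had 3.52 FPKM in library 2, against 5.78 and 5.76 FPKM. The order Tenm3, Tenm2, Tenm4 nonetheless was the same in every library. Tenm3 lay 3.04-fold (2.66 to 3.48) above Tenm2, and Tenm2 lay 1.90-fold (1.62 to 2.24) above Tenm4. In the fit against the shared reference, the call for Tenm4 was lost without library 1 or without library 3.

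The Flrt genes code for leucine-rich repeat proteins that bind latrophilins and the netrin receptors of the Unc5 family. Flrt3 led with 10.6, 11.2 and 11.0 FPKM in libraries 1, 2 and 3, Flrt2 followed with 4.43, 4.64 and 5.13 FPKM, and Flrt1 had 1.45, 1.33 and 1.17 FPKM. Flrt3 lay 2.28-fold (1.94 to 2.69) above Flrt2 and 7.81-fold (6.09 to 10.0) above Flrt1.

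The Cadm genes, immunoglobulin-domain adhesion molecules, made up 27.4% of the summed FPKM of all 42 genes, the largest share of any family. Cadm4 (ENSRNOG00000024243) was the highest gene of the set, with 260 FPKM in library 2, against 212 and 213 FPKM in libraries 1 and 3. Cadm3 had 92.7 FPKM in library 2, against 78.6 and 84.3 FPKM in libraries 1 and 3. Cadm4 lay 2.67-fold (2.46 to 2.90) above Cadm3 and 18.0-fold (15.9 to 20.3) above Cadm1. Cadm2 (13.6 ± 0.853 FPKM) and Cadm1 (12.6 ± 0.928 FPKM; SD, n = 3 each) did not pass the test against each other over all 3 libraries, at a ratio of 1.08 (0.92 to 1.26). Cadm2 had 12.7 FPKM in library 2, against 14.4 and 13.6 FPKM in libraries 1 and 3, and Cadm1 had 13.6 FPKM in library 2, against 11.95 and 12.1 FPKM, so that the order of this pair also turned in library 2. Without library 2 the pair passed, at a ratio of 1.16 (1.02 to 1.32; limma, Benjamini-Hochberg adjusted p = 0.0357). Cadm4 is known from myelinating glia as well as neurons, and Cadm3 and Cadm2 chiefly from neurons.

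**Figure D2:**
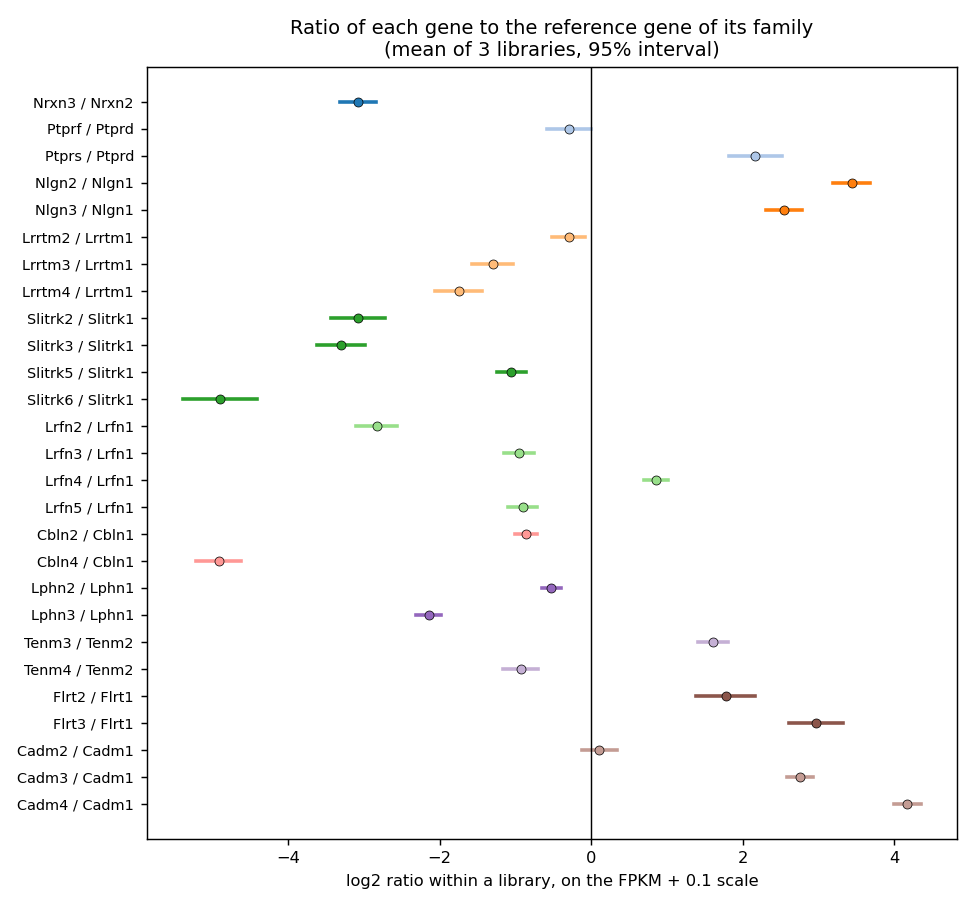
Ratio of each gene to the reference gene of its family, as log2 of the FPKM + 0.1 ratio within a library; points are means of 3 libraries and lines are 95% intervals from the fit with the prior of successive entries. The intervals of Ptprf against Ptprd and Cadm2 against Cadm1 include 0, and Cbln3, listed at 0 in libraries 2 and 3, is left out.

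Over all families, a few genes held most of the message. The 5 highest genes (Cadm4, Ptprs, Nrxn2, Cbln1 and Cadm3) held 55.4% of the summed 1242 FPKM. The leading gene held 40.0% of its family's sum among the Lrrtm genes and 45.5% among the Lrfn genes, and between 52.1% (Lphn1) and 89.4% (Nrxn2) in the other families. Of 41 pairs of neighbours in the order of mean level, 25 did not pass limma's test with Benjamini-Hochberg adjustment. The pairs were picked by the same values that were tested, so their direction and closeness were set beforehand. No share over all entries sorted by level was computed, so the count and the steps below are descriptions. At the top, the steps from Cadm4 to Ptprs (1.57-fold, 1.37 to 1.80), Ptprs to Nrxn2 (1.10-fold, 1.03 to 1.18) and Nrxn2 to Cbln1 (1.34-fold, 1.24 to 1.44) all passed, while Cbln2 and Nlgn2 (1.02-fold, 0.92 to 1.14) did not. The order over all 42 genes was close to the same in each library, with Spearman's rho of 0.993 to 0.999 between libraries, a description across 42 genes.

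**Figure D3:**
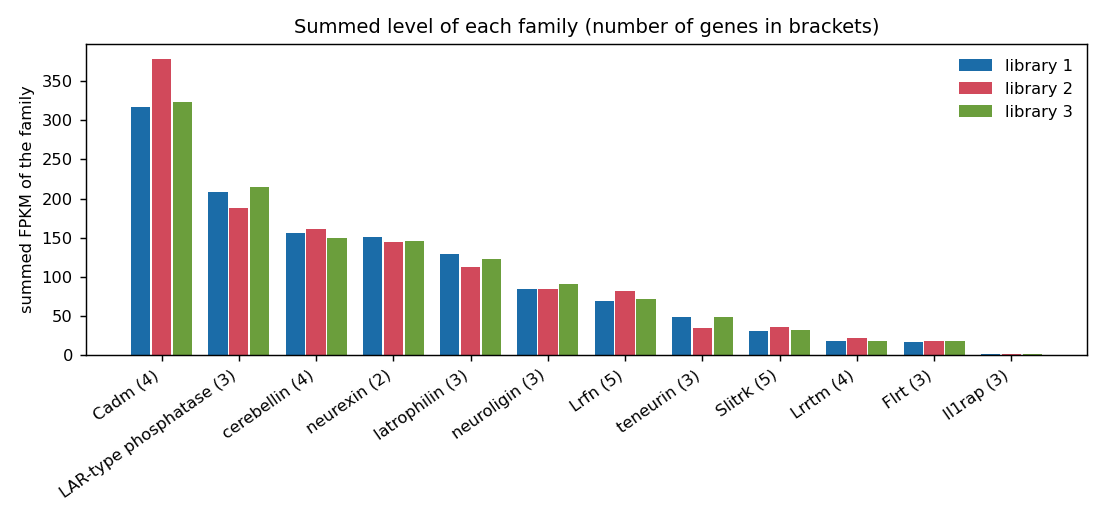
Summed FPKM of each family in libraries 1, 2 and 3, with the number of genes in brackets; bars start at 0. Cadm genes sum to 379 FPKM in library 2 and to 317 and 323 FPKM in libraries 1 and 3, and teneurins sum to 34.3 FPKM in library 2 and to 47.9 and 48.8 FPKM in libraries 1 and 3.

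The presynaptic hubs exceeded the postsynaptic partners counted here when FPKM was summed over each class. The 5 neurexin and LAR-type genes summed to 359.5, 332 and 361 FPKM in libraries 1, 2 and 3, against 203, 224 and 214 FPKM for the 20 neuroligin, Lrrtm, Slitrk, Lrfn and Il1rap genes. The ratio was 1.77, 1.48 and 1.68 in libraries 1, 2 and 3, a mean of 1.64 ± 0.148 (SD, n = 3). It rested on Ptprs and Nrxn2: without these 2 genes, a choice made after their values were seen, the log2 ratio of the sums was -1.53, against 0.71 with them. By the median gene, the presynaptic class had 32.9 FPKM and the postsynaptic class 5.54 FPKM. The classes group genes by their best known side, and synapses themselves were not measured. Genes of other families were not counted, among them the partner genes Clstn1 (136 FPKM) and Lrrc4b (91.4 FPKM). The ratio therefore holds only for the families counted.

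Promoter sequence was read from RefSeq (build GRCr8) for the 35 of 42 genes that had an entry, as the 300 bases from 250 before to 50 after the annotated start. Nrxn2, Nrxn3, Lphn1, Lphn3, Cbln1, Cbln3 and Cadm1 had none. Of several short motifs looked at, the dinucleotide CG (the same on both strands) was chosen for display after sequences and levels had been seen. Promoters rich in CG are those of CpG islands, which are common at broadly active genes. The 35 promoters held a median of 11 CG, against 19 over the 12454 entries above 0 with a RefSeq promoter, and 31.4% held at least 20, against 50.0% of those entries. Across the 35 genes, Spearman's rho between the CG count and mean FPKM was 0.45, and across the 12454 entries it was 0.41. The 11 genes with at least 20 CG had a median of 33.8 FPKM, and the 24 others had a median of 5.54 FPKM. These are descriptions of windows at the annotated start, which need not be the start used in these neurons. The promoters shown are those with the most CG (Lrfn4) and the fewest (Il1rapl1), that of the gene with the highest level (Cadm4), and 2 that go against the relation, Il1rap (many CG, low level) and Lphn2 (few CG, high level). Capitals mark each CG, and sequences run 5′ to 3′ in the direction of the gene.
Lrfn4 (chr1:211321223-211321522, minus strand): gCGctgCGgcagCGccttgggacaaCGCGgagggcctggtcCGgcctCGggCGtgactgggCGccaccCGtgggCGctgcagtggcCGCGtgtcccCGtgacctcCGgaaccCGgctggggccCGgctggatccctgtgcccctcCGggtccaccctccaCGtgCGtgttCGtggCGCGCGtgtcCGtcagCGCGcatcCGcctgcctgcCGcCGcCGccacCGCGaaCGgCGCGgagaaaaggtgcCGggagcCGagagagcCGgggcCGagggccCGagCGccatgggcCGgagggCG
Il1rapl1 (chrX:56588291-56588590, minus strand): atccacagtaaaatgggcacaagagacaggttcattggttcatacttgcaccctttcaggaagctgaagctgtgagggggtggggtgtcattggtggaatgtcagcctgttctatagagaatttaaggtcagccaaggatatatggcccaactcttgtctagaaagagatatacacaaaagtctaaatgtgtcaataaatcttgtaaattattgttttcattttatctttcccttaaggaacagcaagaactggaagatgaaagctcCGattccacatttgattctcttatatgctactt
Cadm4 (chr1:89202839-89203138, plus strand): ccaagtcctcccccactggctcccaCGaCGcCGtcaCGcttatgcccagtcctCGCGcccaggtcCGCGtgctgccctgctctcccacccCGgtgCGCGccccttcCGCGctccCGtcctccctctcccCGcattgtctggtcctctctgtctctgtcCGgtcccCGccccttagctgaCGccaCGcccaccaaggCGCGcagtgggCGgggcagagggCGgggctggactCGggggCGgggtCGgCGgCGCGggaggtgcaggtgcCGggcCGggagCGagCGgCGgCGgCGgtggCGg
Il1rap (chr11:87704293-87704592, minus strand): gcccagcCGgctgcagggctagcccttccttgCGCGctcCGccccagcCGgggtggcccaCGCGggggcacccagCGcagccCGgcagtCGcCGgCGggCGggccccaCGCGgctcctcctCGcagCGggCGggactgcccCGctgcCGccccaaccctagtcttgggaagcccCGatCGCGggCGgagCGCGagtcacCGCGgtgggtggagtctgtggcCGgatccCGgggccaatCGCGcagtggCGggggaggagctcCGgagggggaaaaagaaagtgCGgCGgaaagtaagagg
Lphn2 (chr2:240495250-240495549, minus strand): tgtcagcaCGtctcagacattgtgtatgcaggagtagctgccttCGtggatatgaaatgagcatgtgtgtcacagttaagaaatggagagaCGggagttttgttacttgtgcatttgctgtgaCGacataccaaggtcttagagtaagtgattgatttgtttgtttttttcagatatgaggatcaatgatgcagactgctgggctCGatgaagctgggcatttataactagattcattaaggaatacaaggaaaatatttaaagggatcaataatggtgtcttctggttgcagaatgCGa
The Lrfn4 promoter, of a gene at 33.8 FPKM, held 44 CG, a count reached by 1.89% of all 33469 promoters in the table. This background is not limited to entries above 0. It has a median of 7 CG, and 24.2% of its promoters hold at least 20, so shares of it are not comparable with those above. The Cadm4 promoter, of a gene at 229 FPKM, held 37 CG, a count reached by 4.78% of all promoters. Il1rap and Ptprd have 2 promoters each in the table, of which the first listed was counted throughout. The first Il1rap promoter held 36 CG, nearly as many as Cadm4, at a level of 0.97 FPKM, and the second, shifted by 81 bases, held 32 CG. The first Ptprd promoter held 39 CG and the second 2 CG. Il1rapl1, at 0.23 FPKM, had 1 CG in its window, and Lphn2, at 43.9 FPKM, had 6 CG.

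Library 2 was also set against the other libraries gene by gene. Of the 37 genes with a mean of at least 1 FPKM, 17 were lower and 20 higher in library 2 than the mean of libraries 1 and 3 on the log2(FPKM + 0.1) scale, with a median deviation of 0.038. Over all 11662 entries at that level the median was 0.13 and 28.4% were lower. After rescaling of the libraries to 1 common sum over entries of at most 10000 FPKM, which shifts every gene nearly alike, 22 of the 37 genes were lower and 15 higher, with a median of -0.11, against -0.014 over all entries. The median of the 37 genes lay below that of all entries by a difference of -0.092 before rescaling and -0.093 after it. Nrxn3 and all 3 LAR-type phosphatases, latrophilins and teneurins were lower in library 2 on the deposited scale, whereas all 4 Lrrtm and all 5 Lrfn genes were higher, except that Lrfn2 turned lower after rescaling. The other families were mixed on the deposited scale: 2 of 3 neuroligins, 1 of 4 Slitrk, 1 of 3 cerebellin, 1 of 3 Flrt and 1 of 4 Cadm genes at that level were lower. Nlgn1, Cbln1, Flrt1 and Flrt3 also turned lower after rescaling, so that all neuroligin and Flrt genes were then lower. Nrxn2 deviated by -0.0065 and lay between libraries 1 and 3. A pattern by family was not tested. The lowest deviations were -0.70 for Tenm4, -0.69 for Ptprd, -0.56 for Tenm2, -0.44 for Tenm3 and -0.37 for Nrxn3. These 5 were also the longest of the 37 genes, spanning 1136 to 2975 kb in RefSeq. The highest deviations were 0.29 for Cadm4 and 0.28 for LRRTM1. Between libraries 1 and 3 the same 5 genes differed by 0.0049 to 0.067 on the log2 scale.

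The deviation of library 2 on the deposited scale went with the span of the gene, taken from RefSeq (build GRCr8) after the data were seen. Of the 12 genes spanning at least 200 kb, 8 were lower in library 2, with a median deviation of -0.18, beside 52.7% of 736 entries of that span, with a median of -0.011. Of the 13 genes spanning 20 to 200 kb, 6 were lower, with a median of 0.027, beside 33.0% of 5537 entries and a median of 0.091. Of the 12 genes under 20 kb, 3 were lower, with a median of 0.16, beside 16.6% of 4584 entries and a median of 0.19. Spearman's rho between span and deviation was -0.51 across the 37 genes and -0.35 across the 10857 entries with a span, a description across genes that share the same 3 libraries. Nlgn1 (925 kb, 0.12) and Lrrtm4 (791 kb, 0.17) were long genes that were higher in library 2 on that scale. Of these, Nlgn1 turned lower after rescaling to the common sum. The lower commissural and higher neuronal and progenitor marker sums of library 2, given above for the deposited scale, stand beside this pattern. The marker sums were not rescaled, whereas the common-sum factor was 0.935 for library 2, against 1.03 and 1.04 for libraries 1 and 3. Among the neuronal markers, Dcx and Map2 deviated by -0.016 and -0.028 even as deposited, and the others were higher in library 2. The part of the marker sums in the pattern by span was not tested.

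**Figure D4:**
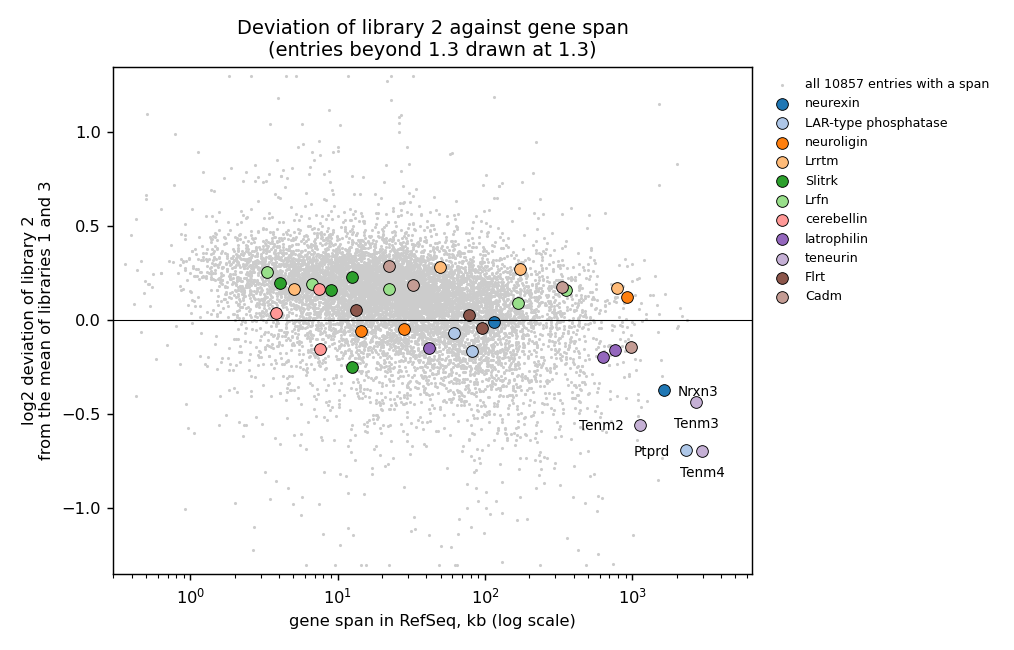
Deviation of library 2 from the mean of libraries 1 and 3, in log2(FPKM + 0.1), against gene span in kb on a log scale; large points are the 37 genes with a mean of at least 1 FPKM and small grey points are all 10857 entries at that level with a span. The 5 lowest genes, Tenm4, Ptprd, Tenm2, Tenm3 and Nrxn3, all lie at the right edge of the span axis.

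Genes that work with these families were read from 6 further lists of 75 genes, of which 68 lay above 1 FPKM in the same limma test, beside the 63.7% of all entries. Of 17 ligands and partners of neurexins and LAR-type phosphatases, 12 passed. Clstn1, a calsyntenin, averaged 136 ± 4.87 FPKM, and the neurexophilins Nxph4 and Nxph1, secreted ligands of alpha-neurexins, averaged 56.6 ± 3.79 FPKM and 36.1 ± 3.14 FPKM (SD, n = 3). The neurexophilins Nxph2 and Nxph3 did not pass, nor did the complement-like C1ql1, C1ql2 and C1ql4. C1ql1 had 0.76 FPKM in library 2, against 1.64 and 1.55 FPKM in libraries 1 and 3, and its call without library 2 is not given here. C1ql2 had 0.06 FPKM in library 3 and was listed at 0 in the others, and C1ql4 had 0.09 FPKM in libraries 1 and 3 and was listed at 0 in library 2. All 17 other synaptic adhesion and organizing genes passed. They were led by Lrrc4b (91.4 ± 4.37 FPKM), which codes for a ligand of LAR-type phosphatases, the adhesion receptor gene Bai2 (35.2 ± 0.536 FPKM) and the pentraxin receptor gene Nptxr (21.8 ± 0.687 FPKM). The netrin-G genes Ntng1 and Ntng2 were the lowest, at 1.89 ± 0.0985 FPKM and 1.28 ± 0.0231 FPKM (SD, n = 3 each).

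Of 20 genes on a broad list of presynaptic scaffold and active zone genes, 19 passed, and Lin7b did not (0.76, 1.61 and 1.94 FPKM). The median gene of this list had 10.9 FPKM, far below its 3 highest, which need not be active zone genes. The highest were Sdcbp (syntenin, 138 ± 9.02 FPKM), the tetraspanin gene Tspan7 (112 ± 9.77 FPKM) and Lin7c (69.8 ± 2.86 FPKM; SD, n = 3 each), and the lowest beside Lin7b was Rimbp2 (3.41 ± 0.560 FPKM). Of 15 postsynaptic scaffold genes of excitatory synapses, 14 passed and Shank2 did not (0.91, 0.77 and 0.94 FPKM). Dlg4, the gene for PSD-95, averaged 54.8 ± 2.25 FPKM, Dlgap4 averaged 36.5 ± 0.190 FPKM and Shank1 averaged 35.9 ± 6.39 FPKM (SD, n = 3), while Dlgap2 had 2.93 ± 0.480 FPKM. All 3 scaffold genes of inhibitory synapses passed: Lhfpl4, which codes for a protein that links Nlgn2 to GABA receptors, at 36.7 ± 3.71 FPKM, Gphn (gephyrin) at 28.8 ± 1.39 FPKM and Magi2 at 11.2 ± 1.09 FPKM (SD, n = 3 each). All 3 genes for STAR-family RNA-binding proteins that regulate neurexin splicing passed, with Khdrbs1 (Sam68) at 191 ± 11.6 FPKM, Khdrbs3 at 58.1 ± 7.46 FPKM and Khdrbs2 at 16.0 ± 1.91 FPKM (SD, n = 3 each).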

How the data were processed

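Stranded libraries of polyadenylated RNA were read as pairs of 50 bp, per the labels. FastQC, Trimmomatic 0.22, STAR and build rn6 appear in the submitters' processing notes. The deposited table gives FPKM for each library; which tool computed it, with which annotation and with what treatment of reads that match several places, is not given in the sources used here. FPKM holds no counts, so depth is unknown and no counting intervals were computed. Summed FPKM without entries above 10000 FPKM was 477484 in library 2, and 433285 and 430187 in libraries 1 and 3. Over all entries the sum was 1.99e+07 in library 2, and 2.50e+07 and 2.62e+07 in libraries 1 and 3.

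The members and lists were chosen with earlier results of these data known. Members were matched by symbol; each had 1 entry. Of 43 genes matched, 1 is not reported here, nor are 4 genes of the further and marker lists; counts, sums, ratios and figures leave them out, while tests over all entries include them. Every reported member is named, with the 3 highest and 2 lowest genes of each further list and the 2 highest of each marker list. A few genes beyond these (Grid1, C1ql1, Cntn2, Boc, Sox10 and genes listed at 0) were named after their values were seen. Of the 75 list genes, 3 were matched by an older symbol (Bai1 to Bai3), and for Rims2, with several entries, the highest was taken.

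Deposited values were not rescaled and were taken to log2(FPKM + 0.1). limma 3.58.1 in R 4.3.3 (statmod 1.5.0) tested 17611 entries, with a robust prior and mean-variance trend, and Benjamini-Hochberg adjustment over all entries at 0.05. With 3 libraries the smallest p of an exact sign-flip test is 0.25, hence the model across all genes. The tests were checked on simulated data. The variance prior from successive entries and the use of gene span, in place of protein length, for which no table was at hand, were added after the data were seen. RefSeq spans and promoters are of GRCr8; no positions of build rn6 were used. Alternatives were other pseudocounts (0.01 and 1), rescaled libraries, other filters, levels of 0.5 and 5 FPKM, another prior, a 1.5-fold margin and each library left out. Analyses used Python 3.11.15, pandas 2.3.3 and matplotlib 3.10.9.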

Additional observations from a re-analysis of the deposited data

How the results depend on the processing

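No paired analysis was possible because there is 1 group. The number of genes above 1 FPKM was 37 with other pseudocounts, filters, priors and scalings, 36 to 37 with a library left out, 38 at a level of 0.5 FPKM (68.3% of all entries) and 27 at 5 FPKM (46.5%). With every library rescaled to a common sum of 1000000 over all entries, most of which a few entries above 10000 FPKM hold, it was 9, and 13.4% of all entries and 14 rather than 68 of the 75 list genes passed. The number of genes that differed from their family reference was 24 with a library left out at the lowest and 28 at the highest, 25 where Cbln3 fell under a mean of 0.1 FPKM and was not tested, 25 with a plain prior and 23 against a margin of 1.5-fold; no ratio changed sign. The median deviation of library 2 over the 37 genes was 0.038 as deposited, -0.11 after rescaling to a common sum over entries of at most 10000 FPKM, -0.060 after rescaling to a common upper quartile and -0.092 with the median of all entries subtracted, an alternative added after the data were seen. The log2 ratio of presynaptic to postsynaptic sums was 0.71, 0.66 to 0.79 with a library left out, 2.55 as a difference of medians over genes, 0.36 without the highest gene of each class and -1.53 without Ptprs and Nrxn2, which was also added later. With unknown depth, the values of Il1rapl1, Il1rapl2 and Cbln3 have no counting error attached, and errors of length or mapping that all libraries share are not covered by any of these tests.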
